A study of Mus musculus with 54 samples.

Results

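The genes described here encode the degradative machinery of the lysosome: 33 genes for proteases, glycosidases, lipid hydrolases, membrane proteins, proton pump subunits and the regulator Tfeb, of 47729 Ensembl genes in the count files. They were taken from a list of names, each matched to 1 mouse Ensembl gene, and none was chosen by a threshold on these data. All 33 passed the filter on low counts, so every count below is out of 33. By role there were 9 proteases, 11 glycosidases and sulfatases, 5 lipid hydrolases and activators, 5 membrane proteins, 2 proton pump subunits and Tfeb.

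Lysosomes are acidic compartments in which proteins, glycans and lipids delivered by endocytosis or autophagy are broken down. Most of the enzymes reach them on mannose-6-phosphate receptors, and a proton pump in the membrane keeps the lumen acidic. TFEB is a transcription factor that binds a palindromic promoter sequence found in many of these genes, and its activity is set mainly by phosphorylation and entry into the nucleus, which RNA counts do not measure. Visceral endoderm, the outer layer of the early embryo, is known for taking up maternal protein and degrading it in large lysosomal vacuoles, and XEN cells are stem cells of the same extraembryonic endoderm.

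RNA-seq counts were available for 40 libraries of mouse cXEN cells in 20 groups of 2. In a pair of degron lines, Gata6 or Sox17, transcription factors of extraembryonic endoderm, carried an FKBP tag through which the compound dTAGV1 directs a protein to degradation. Both lines were sampled at 0 h, with DMSO vehicle, and after 6, 24, 48, 72 and 96 h of 500 nM dTAGV1. Both lines were also made FoxA2-/- and sampled with vehicle and after 48 h of dTAGV1. Parental cXEN cells, without a tag, formed another group. A BMP4 series, whose genotype label is that of the Gata6-FKBP line while its titles name XEN cells, was held in N2B27 medium with 1% serum without BMP4, then in serum-free N2B27 with 25 ng/ml BMP4 for 24 or 72 h. The labels do not say whether the 2 libraries of a group came from separate cultures, nor how many clones stand behind each line, so the p-values speak only of how far these libraries lie apart, which may be technical. No protein was measured: "Gata6 degradation" and "Sox17 degradation" below stand for dTAGV1 in the line concerned.

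Libraries held 16.2 to 42.5 M reads in genes, with a median of 21.6 M. The cells carried 11 of 12 XEN and primitive endoderm markers above 1 CPM in every library. Macrophage genes, a list relevant to lysosomal RNA, summed to between 1.7 and 37.6 CPM over 12 genes. In each group at least 5 of the 12 had no read in either library. Levels are given in CPM, reads of a gene relative to the TMM-scaled library size, for both libraries of a group as a pair. Log2 changes carry ± their standard error from edgeR's quasi-likelihood fit over all 40 libraries, and a gene was called changed at a Benjamini-Hochberg adjusted p under 0.05 over 14625 tested genes. CPM are not corrected for transcript length and are compared only within a gene. Groups said not to overlap hold 2 libraries each, and such pairs can lie apart without a difference. The share of all tested genes without overlap was not counted. The spans of Ctsa, Ctsb, Ctsz, Glb1, Hexa, Idua, Manba, Asah1, Ppt1, Lamp2 and Scarb2 overlap another gene in RefSeq, and the strand setting of the counting is not given in the sources used here, so their counts may hold reads of a neighbour. These are bulk libraries, in which fewer cells expressing a gene and less RNA per cell cannot be told apart.

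Most of the genes were well expressed in every group and varied by a few fold. The highest group mean was 1.44-fold above the lowest for Atp6v1h, a subunit of the cytosolic sector of the proton pump, 1.7-fold for Gla, alpha-galactosidase A, and 1.85-fold for Lamp1, a main glycoprotein of the lysosomal membrane. A few varied far more. Hexa, the alpha subunit of beta-hexosaminidase, spanned 364-fold, from a mean of 0.338 CPM in N2B27 to 123 CPM in the Sox17-FKBP FoxA2 mutant after dTAGV1. Ctsh, an aminopeptidase of the cathepsin family, spanned 14.4-fold, and Ctsc, a dipeptidyl peptidase that activates other proteases, spanned 13.1-fold. Manba, beta-mannosidase, spanned 7.07-fold and Gaa, which breaks down glycogen, 6.67-fold. Ctsa, Ctsb, Ctsd, Ctsh, Ctsl, Ctsz, Tpp1, Gaa, Neu1, Mcoln1, Atp6v0d1 and Tfeb each had their highest group mean at 24 h of BMP4.

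**Figure D1:**
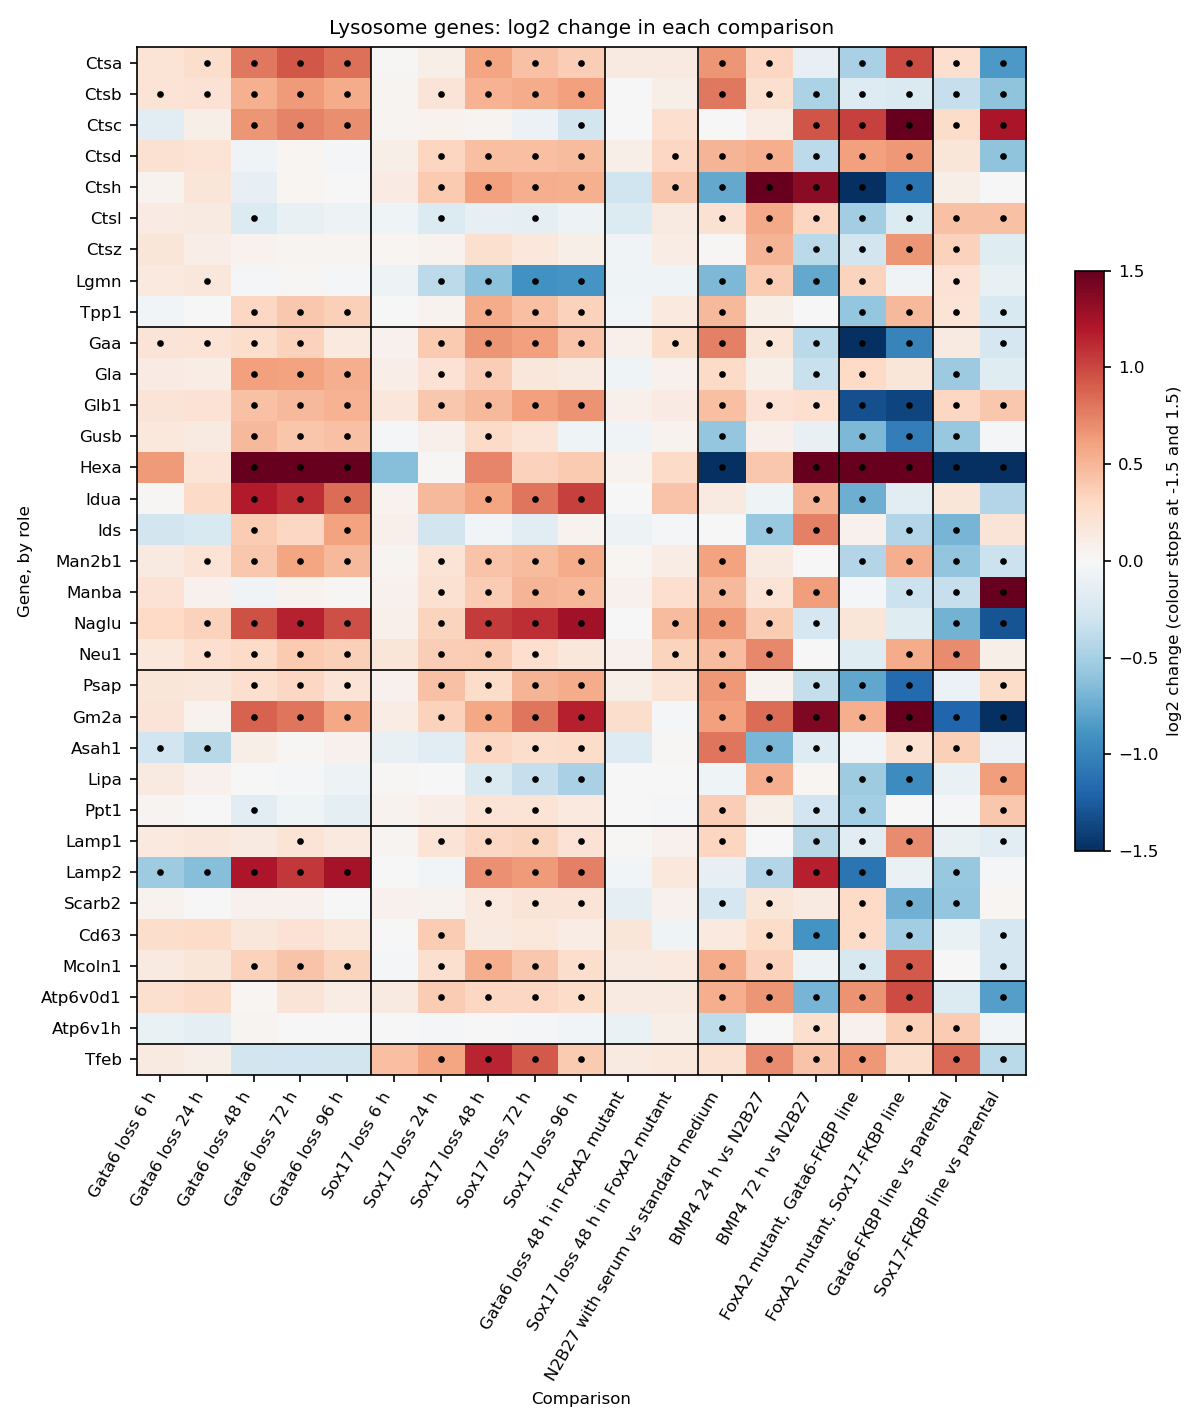
Log2 change of each of the 33 genes (rows, by role) in each comparison (columns), in colour that stops at 1.5 in either direction; dots mark genes called by edgeR at an adjusted p under 0.05. Red columns appear from 48 h of Gata6 degradation and from 24 h of Sox17 degradation, while both columns for degradation in FoxA2 mutants are pale, with 0 and 5 genes called.

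The first comparison followed Gata6 degradation. Most lysosome genes were little changed for 24 h and higher from 48 h on. At 6 h only 4 of 33 were called: 2 rose, against 3.43% of all tested genes, and 2 fell, against 10.4%. At 24 h 7 rose (7.11% of all genes) and 2 fell (14.3%). At 48 h 18 rose (18.2% of all genes) and 2 fell (21.9%), at 72 h 18 rose (17.8%) and none fell (21.9%), and at 96 h 17 rose (18.2%) and none fell (22.1%). The median log2 change of the 33 genes at 48 h was 0.26, against 0.00 over all tested genes. All 5 comparisons share the same 2 control libraries.

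The glycosidases, counted together with the sulfatase Ids, moved most uniformly. Of these 11 genes 10 rose at 48 h and none fell, with Manba at a log2 change of -0.05 the exception. Naglu and Idua are exoglycosidases that take part in heparan sulfate breakdown. Naglu stood at 14.1 and 16.8 CPM at 0 h and at 30.9 and 29.2 at 48 h, 35.8 and 33 at 72 h and 29.2 and 31.3 at 96 h. The level at 72 h was 2.23-fold that at 0 h, with no overlap between the groups (log2 change 1.15 ± 0.11, edgeR adjusted p = 1.2e-09). Idua lay at 4.58 and 4.17 CPM at 0 h and at 10.8 and 9.26 at 48 h, again without overlap (1.19 ± 0.20, edgeR adjusted p = 2.3e-05). The Idua locus overlaps Dgkq and Slc26a1. Hexa rose from 0.881 and 1.67 CPM to 4.24 and 4.1, that is from 15 and 26 reads to 82 and 73. The groups did not overlap (1.72 ± 0.30, edgeR adjusted p = 3.1e-05), but even the higher level was low beside this gene's level in other groups.

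Among membrane proteins Lamp2, which lines the lysosome and serves chaperone-mediated autophagy, moved in both directions over time. It stood at 94.8 and 79.1 CPM at 0 h, fell to 62.5 and 58.2 at 6 h and to 56.9 and 54.6 at 24 h, and then lay at 197 and 205 at 48 h. The early libraries lay below both controls and the 48 h libraries above them. The log2 changes were -0.53 ± 0.13 at 6 h (edgeR adjusted p = 0.0086), -0.64 ± 0.12 at 24 h (adjusted p = 0.00094) and 1.21 ± 0.12 at 48 h (adjusted p = 7.5e-09). Without replicate 1 of the 0 h group the falls missed the threshold, at adjusted p = 0.33 and 0.07, and the 6 h fall also did so without either 6 h library (adjusted p = 0.084 and 0.068). Asah1, acid ceramidase, showed an early dip as well, from 310.1 and 281 CPM to 238 and 245 at 6 h and 220.4 and 222 at 24 h, with no overlap (-0.42 ± 0.08 at 24 h, adjusted p = 0.00067). Without the same control library that fall had an adjusted p of 0.052 at 24 h and 0.4 at 6 h, and without either 6 h library one of 0.16 and 0.058 at 6 h. Unlike Lamp2, Asah1 was back at 317 and 310.3 CPM at 48 h and was not called.

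Of the other genes called early, Ctsb, an abundant cysteine protease, went from 479 and 522 CPM to 574 and 578 at 6 h (0.20 ± 0.06, edgeR adjusted p = 0.028). Gaa went from 316 and 355 to 396 and 369.5 (0.19 ± 0.06, adjusted p = 0.046). Both groups were separate from the controls, but the calls of both at 6 h were lost without either 6 h library and without replicate 1 of the controls. At 24 h the largest rises were those of Naglu, at 18.9 and 20.4 CPM (0.35 ± 0.11, adjusted p = 0.024), of Ctsa at 344 and 349 CPM against 272 and 307 (0.26 ± 0.08, adjusted p = 0.017), and of the sialidase Neu1 at 225 and 228 against 179 and 201 (0.25 ± 0.09, adjusted p = 0.037). The calls of Naglu, Ctsa and Neu1 at 24 h were also lost when either 24 h library was left out. That of Naglu was further lost without the filter on counts and in a fit of only the libraries compared (edgeR adjusted p = 0.09 and 0.12). Ctsa encodes a carboxypeptidase that protects Neu1 and the beta-galactosidase Glb1 in a complex. Without replicate 1 of the 0 h group none of the 33 genes was called at 6 h or at 24 h, and without its replicate 2, 10 were called at 6 h.

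The proteases were divided at 48 h, with 4 of 9 higher and 1 lower. Ctsa reached 496 and 509.7 CPM at 48 h and 582 and 524 at 72 h, and both its partners rose with it. Ctsc rose from 33.8 and 36.2 CPM to 54.6 and 56.3 at 48 h, with no overlap. Ctsl, a cathepsin that digests proteins broadly, fell from 1581 and 1616 CPM to 1394 and 1394, below both controls (-0.20 ± 0.05, edgeR adjusted p = 0.0038), a call lost in a fit of only the libraries compared (adjusted p = 0.056). Ctsd, Ctsh, Ctsz and Lgmn were not called at 48 h. Ppt1, a thioesterase that removes palmitate from proteins, went from 70.9 and 74 CPM to 64.2 and 65 (-0.17 ± 0.07, adjusted p = 0.048), and that call was lost in every alternative tried, with adjusted p from 0.051 to 0.86.

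Tfeb itself was not called at any time of Gata6 degradation. It stood at 15.6 and 18.9 CPM at 0 h, 20 and 17.8 at 6 h, 19.5 and 17 at 24 h, 12.9 and 15.5 at 48 h, 14 and 14.2 at 72 h and 13.6 and 14.9 at 96 h. From 48 h both libraries lay below both controls, at -0.28 ± 0.12 (edgeR adjusted p = 0.074). Without replicate 1 of the controls the change passed the test as a fall at all 3 late times, with adjusted p of 0.033 to 0.036. Mcoln1, the calcium channel of the lysosomal membrane, rose from 44.1 and 47.5 CPM to 57.9 and 59.1 at 48 h, 64.3 and 59.1 at 72 h and 56.7 and 58.6 at 96 h, each time without overlap (0.35 ± 0.09 at 48 h, adjusted p = 0.0014).

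Genes of the pathway outside the 33 were counted in further lists at 48 h of Gata6 degradation, when 18.2% of all tested genes rose and 21.9% fell. Whether any list departs from these shares was not tested. Of 26 other lysosomal hydrolases 13 rose and 2 fell. The largest change among them was that of Scpep1, a serine carboxypeptidase, from 124 and 137 to 287 and 296 CPM (1.16 ± 0.06, edgeR adjusted p = 1.9e-14). Of 19 other lysosomal membrane genes 12 rose and none fell, among them the cystine exporter Ctns (0.85 ± 0.09, adjusted p = 7.1e-09). Of 17 other proton pump subunits 1 rose and 4 fell. Of 10 genes of mannose-6-phosphate sorting 2 rose and 5 fell, led by Gnptab, which makes the sorting tag, at 113 and 113 CPM against 203 and 204 (-0.85 ± 0.10, adjusted p = 1.9e-07). Of 27 autophagy genes 8 rose and 4 fell, and of 18 TFEB relatives and nutrient sensors 5 rose and 5 fell. Mitf, a relative of TFEB, rose from 13.6 and 10.5 to 25.4 and 26.4 CPM (1.10 ± 0.17, adjusted p = 9e-06).

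**Figure D2:**
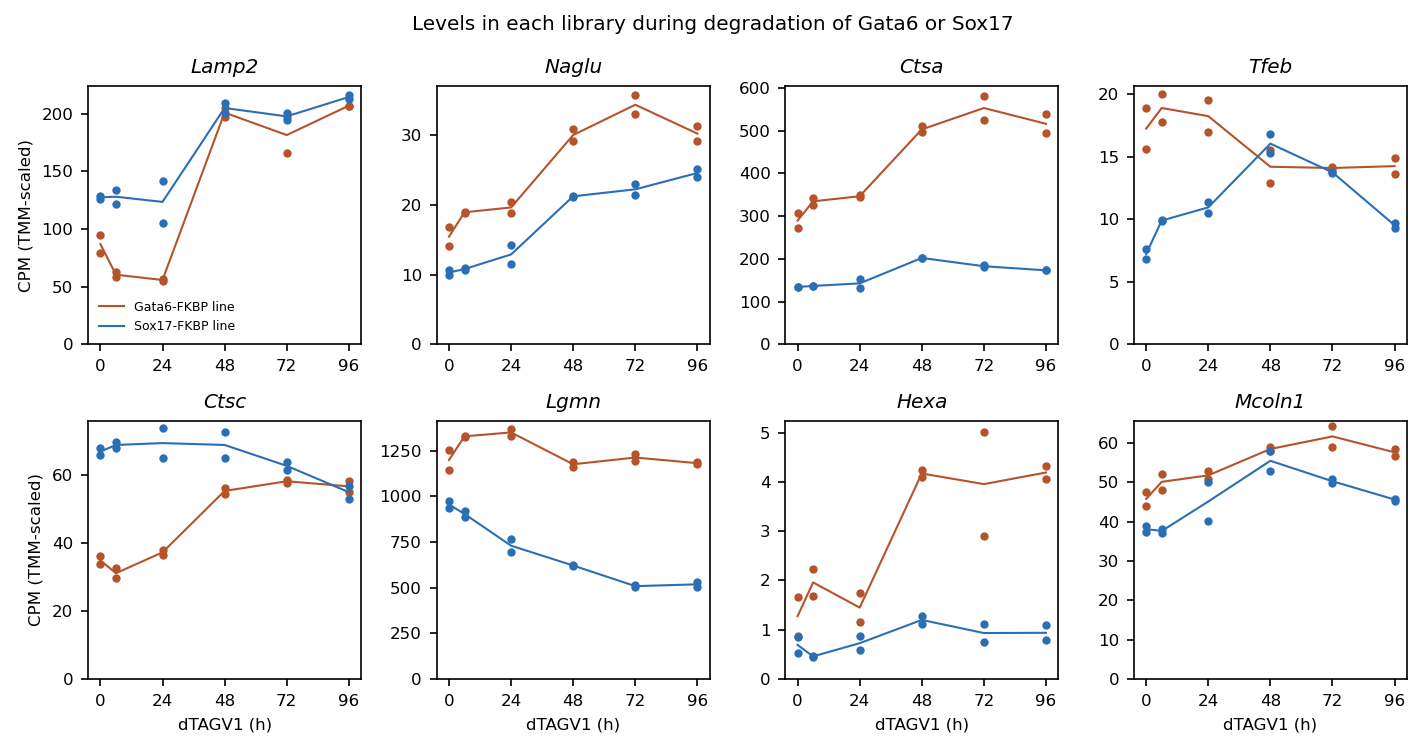
CPM of 8 genes in each library (points) against hours of dTAGV1 in the Gata6-FKBP (brown) and Sox17-FKBP (blue) lines, with lines through the group means and axes from 0. Lamp2 dips at 6 and 24 h and jumps at 48 h in the Gata6-FKBP line, Tfeb peaks at 15.3 and 16.8 CPM at 48 h in the Sox17-FKBP line, and Lgmn falls only in the latter.

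Reads outside annotated genes, a measure of RNA or library composition, moved with late Gata6 degradation, from 5.66 and 6.11 per 100 gene reads at 0 h to between 7.01 and 8.15 at 48 to 96 h. With this measure as a covariate in the fit 23 of the 33 genes rose at 48 h and none fell, and 24 rose and none fell at 72 and at 96 h. Shares of all tested genes under this covariate are not given here. The visceral endoderm list, 11 genes, summed to 915 and 919 CPM at 0 h and 666 and 678 at 48 h. In it 7 genes were above 1 CPM in both libraries at 0 h and 9 at 48 h. The macrophage list summed to 1.7 and 2.18 CPM at 0 h and 2.84 and 3.09 at 48 h, with 8 of 12 genes at 0 in both groups. Whether these lists bear on the rise was not tested.

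Sox17 degradation was followed by rises from 24 h on. At 6 h edgeR called none of the 33 genes, with 3 at an unadjusted p under 0.05 and 1 called by DESeq2, against 0.991% higher and 0.752% lower of all tested genes. At 24 h 17 rose (17.4% of all genes) and 2 fell (13%). At 48 h 24 rose (16.3%) and 2 fell (14.6%), at 72 h 22 rose (21.2%) and 3 fell (15%), and at 96 h 20 rose (23.3%) and 3 fell (17.2%). The median log2 change of the 33 at 48 h was 0.38, against 0.02 over all genes. The pair at 24 h was uneven. In a fit of only the libraries compared 1 gene was called, without replicate 1 of the 24 h group 7, and without replicates 1 and 2 of the controls 9 and 11.

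At 48 h the rises covered each role. They took in 5 of 9 proteases, 9 of the 11 glycosidases and sulfatase, and 4 of 5 lipid hydrolases and activators. Also higher were 4 of 5 membrane proteins, 1 of 2 pump subunits and Tfeb. Tfeb changed most. It stood at 6.8 and 7.65 CPM at 0 h, 9.9 and 9.89 at 6 h, 11.4 and 10.5 at 24 h, 15.3 and 16.8 at 48 h, 13.8 and 13.7 at 72 h and 9.73 and 9.32 at 96 h. All treated libraries lay above both controls, and the level was highest at 48 h (1.14 ± 0.12, edgeR adjusted p = 2.8e-08). The change was 0.45 ± 0.13 at 6 h, which missed the threshold (adjusted p = 0.07; 0.049 by DESeq2), and 0.39 ± 0.13 at 96 h (adjusted p = 0.014), a call lost without replicate 1 of either the 0 h or the 96 h group (adjusted p = 0.12 and 0.088). Mcoln1 stood at 37.3 and 39 CPM at 0 h and 37.1 and 38.2 at 6 h, then at 50 and 40.3 at 24 h, 53 and 58 at 48 h, 49.8 and 50.8 at 72 h and 45.9 and 45.4 at 96 h. Its libraries were separate from the controls from 24 h on (0.54 ± 0.08 at 48 h, adjusted p = 9.7e-06), although the 24 h call was lost in 6 alternatives (adjusted p = 0.07 to 0.67, the last without replicate 1 of that group) and the 96 h call in 4 (adjusted p = 0.056 to 0.11).

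Naglu rose here too, from 10.6 and 10 CPM to 21.3 and 21.2 at 48 h, 21.5 and 23 at 72 h and 25.2 and 24 at 96 h, without overlap (1.26 ± 0.10 at 96 h, edgeR adjusted p = 1.2e-10). Gm2a, the activator that presents GM2 ganglioside to hexosaminidase, rose from 8.62 and 8.39 CPM to 19.3 and 18.9 at 96 h, also without overlap (1.17 ± 0.09, adjusted p = 5.7e-11). Lamp2 rose from 129 and 126 CPM to 201 and 209 at 48 h (0.69 ± 0.12, adjusted p = 4.9e-05), and Idua from 2.42 and 3.2 to 5.77 and 5.78 at 96 h (1.02 ± 0.20, adjusted p = 0.00013). Neither pair of groups overlapped. The 24 h rises were led, after Tfeb, by Psap, the precursor of the saposins, at 1572 and 1354 CPM against 1077 and 1084 (0.44 ± 0.07, adjusted p = 2e-05), and by Glb1 at 76.2 and 62.8 against 51.1 and 53.5 (0.41 ± 0.08, adjusted p = 0.00037). In a fit of only the libraries compared neither was called at 24 h (adjusted p = 0.069 and 0.12).

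A small set of genes fell as the others rose. Lgmn, legumain, an endopeptidase that cuts after asparagine and processes cathepsins, fell at every time from 24 h: from 938 and 974 CPM to 767 and 694, then 623 and 621, 503 and 515, and 532 and 506 at 96 h. No treated library reached either control (-0.91 ± 0.06 at 72 h, edgeR adjusted p = 2.3e-12). Lipa, acid lipase, fell from 159.8 and 158 CPM to 136 and 136 at 48 h, 128 and 122 at 72 h and 114 and 112 at 96 h, without overlap (-0.49 ± 0.06 at 96 h, adjusted p = 2.4e-07). Ctsl fell by 0.21 ± 0.05 at 24 h, from 1592 and 1589 CPM to 1385 and 1361 (adjusted p = 0.0034), and lay at 1379 and 1490 at 72 h (adjusted p = 0.029). Ctsc lay at 65.9 and 68.2 CPM at 0 h and 53.2 and 57 at 96 h, just separate (-0.28 ± 0.08, adjusted p = 0.0048). The calls of Ctsl at 24 h and of Ctsc at 96 h were each lost in an alternative (adjusted p = 0.085 in a fit of only the libraries compared, and 0.074 without replicate 1 of the 96 h group), and that of Ctsl at 72 h when any of 3 libraries was left out.

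The wider lists at 48 h of Sox17 degradation stand beside 16.3% of all tested genes that rose and 14.6% that fell. In them 17 of 26 other hydrolases rose and 2 fell, 9 of 19 other membrane genes rose and none fell, and 12 of 27 autophagy genes rose and 1 fell. Of 17 other pump subunits 6 rose and 1 fell, led by Atp6v0a1 at 208 and 218 CPM against 111 and 108 (0.96 ± 0.08, edgeR adjusted p = 1.1e-10). Of 10 sorting genes 5 rose and 2 fell; Sort1, a sorting receptor, rose from 5.26 and 5.26 to 12.9 and 12 CPM (1.25 ± 0.14, adjusted p = 4.7e-08). Of 18 TFEB relatives and nutrient sensors 6 rose and none fell, among them Mitf at 36.3 and 38.8 CPM against 20.6 and 19.9 (0.89 ± 0.15, adjusted p = 5.2e-05). None of 4 cathepsin inhibitors was called at 48 h in either line. The macrophage list moved from 13.4 and 12.2 summed CPM at 0 h to 15.4 and 16.3 at 48 h and 34.7 and 37.6 at 96 h, with 6 and 7 of its 12 genes at 0 in both libraries at 48 and 96 h, and the visceral endoderm list from 1121 and 1060 to 1103 and 1217 at 48 h and 1447 and 1602 at 96 h. Whether either bears on the rise was not tested.

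Promoters of the 33 genes were searched for the palindrome bound by TFEB, because Tfeb and many of the genes rose together in the Sox17-FKBP line. RefSeq promoter sequences on GRCm38.p6, 250 bases before to 50 after each gene start, were at hand for 29 of them (not Ctsh, Asah1, Ctsb and Atp6v1h). The letters TCACGTGA, which read the same on both strands and contain the shorter E-box CACGTG, were found in 5 of 29 (17.2%), namely Ctsa, Ctsd, Gla, Mcoln1 and Atp6v0d1, and in 1.12% of 27025 genes with a promoter in the table. CACGTG, within the longer palindrome or outside it, was found in 11 of 29 (37.9%), these 5 among them, and in 8.09% of all. Of these windows, those of Ctsa, Ctsl and Lgmn lie at a start inside the gene's RefSeq span, which for Ctsa begins at base 164832872. Shown here, with each palindrome and each further E-box in capitals, are sites upstream of the start used. They come from 4 genes with the palindrome and from Lamp1, whose promoter carries 4 E-boxes. Each is written from 5′ to 3′ on the strand of its gene.
Ctsa, chr2:164833730-164833772, plus strand: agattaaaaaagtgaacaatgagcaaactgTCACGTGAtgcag
Ctsd, chr7:142387889-142387956, minus strand: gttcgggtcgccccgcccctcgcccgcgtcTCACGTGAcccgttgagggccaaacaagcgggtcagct
Gla, chrX:134601163-134601230, minus strand: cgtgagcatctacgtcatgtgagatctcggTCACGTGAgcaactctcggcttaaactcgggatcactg
Mcoln1, chr8:3500443-3500510, plus strand: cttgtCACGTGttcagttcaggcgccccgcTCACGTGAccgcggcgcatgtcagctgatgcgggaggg
Lamp1, chr8:13159086-13159151, plus strand: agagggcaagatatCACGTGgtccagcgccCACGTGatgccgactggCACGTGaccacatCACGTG

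The 5 genes with the palindrome all rose at 48 h of Sox17 degradation, by log2 changes of 0.31 to 0.59. So did 16 of 24 with a promoter that lacks it, against 16.3% of all tested genes. At 48 h of Gata6 degradation 3 of the 5 and 14 of the 24 rose, against 18.2% of all tested genes. These are descriptions of a letter match; no binding was examined, and the ATAC-seq and CUT&RUN samples of the series were not analysed here.

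**Figure D3:**
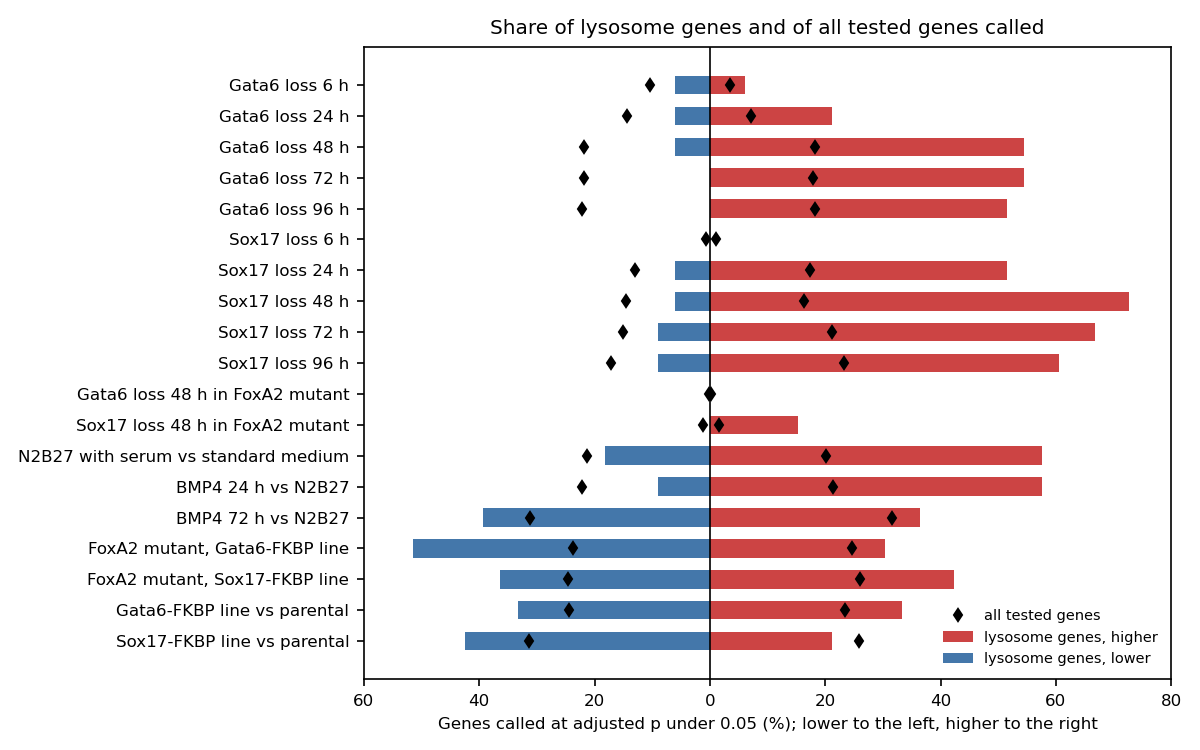
Percentage of the 33 lysosome genes called higher (red bars, to the right) or lower (blue bars, to the left) in each comparison, with diamonds for the percentage of all 14625 tested genes called in the same direction. At 48 h of Sox17 degradation the red bar reaches 72.7% and the diamond 16.3%, and at 72 h of BMP4 both bars lie near their diamonds.

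Set side by side at 48 h, 15 genes rose in both lines, which is 83.3% of the 18 that rose with Gata6 degradation and 62.5% of the 24 that rose with Sox17 degradation. Over all tested genes 1097 rose in both, 41.3% and 46% of those that rose in each line. At 96 h 11 lysosome genes rose in both, 64.7% of 17 and 55% of 20, against 48.4% and 37.7% over all genes. Whether these shares differ was not tested. The difference of the log2 changes (Sox17-FKBP line minus Gata6-FKBP line) was tested directly. At 48 h it was positive for 7 genes (11% of all tested genes) and negative for 3 (6.16%), and at 96 h positive for 8 (13.7%) and negative for 9 (6.48%). Without replicate 2 of the Gata6-FKBP 0 h group 11 were called at 96 h.

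Tfeb differed most at 48 h, with a difference of 1.42 ± 0.17 (edgeR adjusted p = 8.6e-07), and by 0.66 ± 0.18 at 96 h (adjusted p = 0.0076), a call lost without replicate 2 of the Gata6-FKBP 0 h group (adjusted p = 0.067). Ctsh rose only with Sox17 degradation, from 239 and 245 CPM to 374 and 363, against 248 and 272 to 241 and 236 with Gata6 degradation (difference 0.73 ± 0.12, adjusted p = 0.00011). The aspartic protease Ctsd differed in the same direction, at 374 and 382 to 512 and 520.3 CPM against 617 and 685 to 646 and 613 (difference 0.50 ± 0.12, adjusted p = 0.0054). Lgmn and Ctsc differed in the other direction: Lgmn held at 1162 and 1191 CPM with Gata6 degradation (difference -0.59 ± 0.08, adjusted p = 9.6e-06), and Ctsc stayed at 65.3 and 72.7 CPM with Sox17 degradation (difference -0.62 ± 0.11, adjusted p = 0.00027). Lamp2 changed less in the Sox17-FKBP line (difference -0.52 ± 0.17, adjusted p = 0.034), but the call was lost when any of 7 of the 8 libraries was left out. At 96 h Gm2a also rose more with Sox17 degradation (difference 0.59 ± 0.14, adjusted p = 0.0019). The difference for Hexa at 96 h, -1.34 ± 0.47 (adjusted p = 0.044), rested on 15 and 36 reads at 0 h and 26 and 18 at 96 h in the Sox17-FKBP line, and was lost in 7 alternatives. For Mcoln1 the difference was 0.19 ± 0.12 at 48 h (adjusted p = 0.32), with no call.

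**Figure D4:**
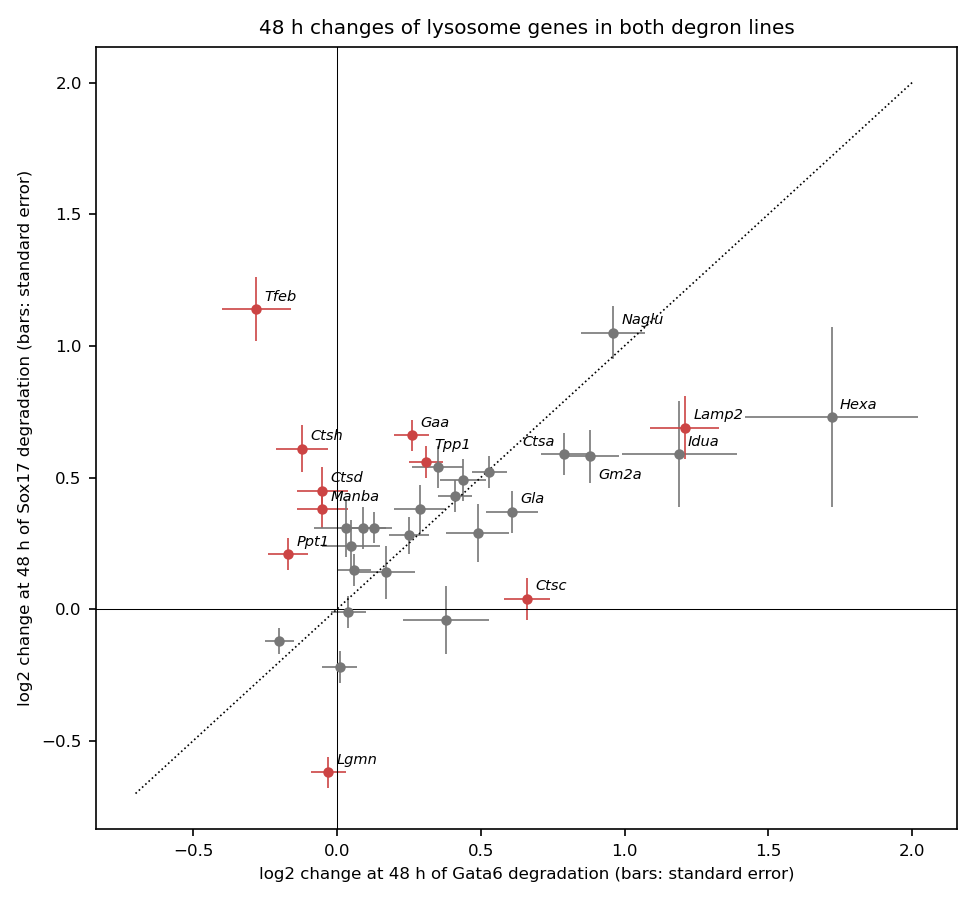
Log2 change of each of the 33 genes at 48 h of Gata6 degradation (x axis) and of Sox17 degradation (y axis), with standard errors as bars and the line of equal change dotted; red marks the 10 genes whose changes differed by edgeR's test. Tfeb lies far above the line at -0.28 and 1.14, and Lgmn far below it at -0.03 and -0.62.

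Medium and BMP4 were examined next. N2B27 with 1% serum was compared with the standard medium of the Gata6-FKBP line, which has 15% serum; medium, serum, coating and series differ together here and cannot be told apart. In N2B27 19 of the 33 genes were higher (20.1% of all genes) and 6 lower (21.4%), with a median log2 difference of 0.32 against -0.02 over all genes. Asah1 was at 527 and 505 CPM against 310.1 and 281 (0.80 ± 0.08, edgeR adjusted p = 3.9e-09), Ctsb at 868 and 858 against 479 and 522 (0.79 ± 0.06, adjusted p = 7.1e-11) and Gaa at 570.4 and 566 against 316 and 355 (0.76 ± 0.06, adjusted p = 3.3e-10). In all 3 the groups were well apart. Ctsh was lower, at 147 and 158 CPM against 248 and 272 (-0.77 ± 0.09, adjusted p = 9.7e-08), as was Lgmn at 758 and 746 against 1147 and 1253 (-0.67 ± 0.06, adjusted p = 8.1e-10). Hexa fell to its lowest level, 0.42 and 0.256 CPM, or 7 and 5 reads (-1.91 ± 0.50, adjusted p = 0.0031), a call lost without replicate 2 of either group (adjusted p = 0.077 and 0.055). Mcoln1 was at 65 and 69.7 CPM against 44.1 and 47.5 (0.56 ± 0.08, adjusted p = 6.2e-06), and Tfeb at 19.5 and 20.8 against 15.6 and 18.9 was not called (adjusted p = 0.13). Of the other hydrolases 19 of 26 were higher and 1 lower, led by the acid phosphatase Acp5 at 46.7 and 44.6 CPM against 17.5 and 20.9 (1.25 ± 0.12, adjusted p = 1.8e-09), and of the other membrane genes 13 of 19 were higher and none lower. The visceral endoderm list stood at 1837 and 1813 summed CPM in N2B27 and 915 and 919 in standard medium.

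BMP4 for 24 h, which came with the removal of serum, raised 19 of the 33 genes (21.3% of all genes) and lowered 3 (22.2%) beyond the N2B27 level. The 2 libraries at 24 h were the most uneven pair of the series. In a fit of only the libraries compared 1 gene was called, and without replicate 2 of the 24 h group 14 were. Ctsh rose from 147 and 158 CPM to 414 and 469, far above the controls (1.53 ± 0.09, edgeR adjusted p = 4.8e-13). Gm2a rose from 18.9 and 17.1 to 31.8 and 32.5 (0.84 ± 0.09, adjusted p = 6.1e-08) and Neu1 from 262 and 262 to 383 and 482 (0.72 ± 0.09, adjusted p = 3.3e-07). Asah1 moved back from 527 and 505 to 339 and 299.9 CPM (-0.69 ± 0.08, adjusted p = 1.2e-07), without overlap. Ids, iduronate 2-sulfatase, went from 11.1 and 11 to 8.38 and 6.45 (-0.57 ± 0.16, adjusted p = 0.0049) and Lamp2 from 78.8 and 81 to 67.4 and 50.1 (-0.44 ± 0.12, adjusted p = 0.0056); both calls were lost without replicate 2 (adjusted p = 0.15 and 0.23). Tfeb reached its highest level of all groups at 29.6 and 36.3 CPM (0.71 ± 0.12, adjusted p = 3.3e-05), and Mcoln1 was at 81.2 and 89 (0.34 ± 0.08, adjusted p = 0.0021). In the fit of only the compared libraries Ctsh kept its call and Gm2a, Neu1, Asah1, Tfeb and Mcoln1 did not, with adjusted p of 0.053 to 0.13. The visceral endoderm list differed between the 24 h libraries, at 2196 and 1202 summed CPM.

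By 72 h of BMP4 calls went both ways, at shares near those of all genes. Of the 33 genes 12 were above N2B27 (36.4%, against 31.6% of all genes) and 13 below (39.4%, against 31.2%). The median log2 change was -0.00, against 0.00 over all genes. Compared with 24 h, 9 rose (35.3%) and 18 fell (35%), with a median of -0.28. The genes above N2B27 included a hexosaminidase subunit and its activator. Gm2a reached 45.6 and 49.3 CPM (1.40 ± 0.09, edgeR adjusted p = 4.3e-13) and Hexa 1.93 and 2.35 (2.67 ± 0.43, adjusted p = 5.3e-06), and Ctsh stayed at 390.1 and 389 CPM (1.35 ± 0.09, adjusted p = 9.8e-13). None of these overlapped its controls. Below N2B27 were Cd63, a tetraspanin of late endosomes, at 363 and 368 CPM against 678 and 684 (-0.90 ± 0.11, adjusted p = 4e-08), Lgmn at 441 and 444 against 758 and 746 (-0.77 ± 0.06, adjusted p = 2.5e-11) and the pump subunit Atp6v0d1 at 184 and 188 against 306 and 301 (-0.70 ± 0.11, adjusted p = 2.2e-06). From 24 to 72 h Lamp2 rose from 67.4 and 50.1 to 187 and 173 CPM (1.61 ± 0.12, adjusted p = 1e-11) and Ids from 8.38 and 6.45 to 19.2 and 18.1 (1.32 ± 0.15, adjusted p = 8.8e-09), both without overlap. Tfeb lay at 28 and 26.3 CPM at 72 h. It was called higher than in N2B27 (log2 change 0.43) and lower than at 24 h (-0.28), the latter a call lost by DESeq2 (adjusted p = 0.056) and in other alternatives. Mcoln1, at 62.9 and 64.7 CPM, was called lower than at 24 h and was not called against N2B27.

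The 72 h libraries held 10.45 and 10.32 reads outside genes per 100 gene reads, against 5.64 and 5.69 in N2B27, the highest of all groups. With this measure as a covariate 12 of the 33 genes were called at 72 h against N2B27 in place of 25. Of these 10 were higher (12 without it) and 2 lower (13). Against 24 h 6 were called in place of 27, with 5 higher (9 without it) and 1 lower (18). Only 9 and 4 of the calls made without it were kept. Shares of all tested genes under the covariate are not given here. Under it neither Cd63 nor Atp6v0d1 was called against N2B27 (log2 change -0.14 and 0.12, edgeR adjusted p = 0.56 and 0.6). The rises of Lamp2 and Ids from 24 to 72 h missed the threshold (adjusted p = 0.058 and 0.49). BMP4 time and this measure cannot be told apart at 72 h. In the wider lists at 72 h against N2B27, 5 of 26 other hydrolases were higher (31.6% of all genes) and 15 lower (31.2%). Of the others 6 of 19 membrane genes were higher and 11 lower, 3 of 17 pump subunits higher and 8 lower, and 3 of 10 sorting genes higher and 6 lower. Igf2r, the large mannose-6-phosphate receptor, was at 879 and 869 CPM against 443 and 446 (0.98 ± 0.13, edgeR adjusted p = 1.8e-07). The lysosomal phospholipase Pla2g15 was at 63.8 and 60.5 against 132 and 125 (-1.05 ± 0.10, adjusted p = 4.1e-10). Of the 5 genes with the TFEB palindrome 5 were higher in N2B27 than in standard medium, against 20.1% of all tested genes. So were 12 of the 24 whose promoter lacks it. At 24 h of BMP4 4 of the 5 and 13 of the 24 rose, against 21.3% of all tested genes. At 72 h none of the 5 rose and 3 fell, while 10 of the 24 rose and 8 fell (31.6% and 31.2% of all). Whether genes with and without the palindrome differ was not tested.

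The largest single changes were found in the FoxA2 mutants. Foxa2 RNA itself stood at 112 and 112 CPM in the Gata6-FKBP mutant against 117 and 130.4 in its non-mutant line, and at 85.3 and 90.7 in the Sox17-FKBP mutant against 119 and 121, which does not check the mutation, since the labels do not give the lesion. In vehicle the Gata6-FKBP mutant had 10 of the 33 genes higher (24.6% of all genes) and 17 lower (23.7%), and the Sox17-FKBP mutant 14 higher (26%) and 12 lower (24.6%). The median log2 difference was -0.18 and 0.00.

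Hexa was nearly silent in the tagged lines and high in both mutants. It rose from 0.881 and 1.67 CPM to 44.4 and 39.1 in the Gata6-FKBP mutant (5.05 ± 0.23, edgeR adjusted p = 1.7e-16) and from 0.526 and 0.86 to 98.5 and 102 in the Sox17-FKBP mutant (7.11 ± 0.22, adjusted p = 1.2e-20). These correspond to 972 and 872 reads against 15 and 26, and to 2971 and 4417 against 15 and 36. Parental cells lay between, at 14.4 and 19.8 CPM, and no library of any tagged non-mutant group exceeded 5.01. Tmem202 overlaps the Hexa locus.

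Ctsc was higher in both mutants too, at 69.2 and 73.8 CPM against 33.8 and 36.2 (1.03 ± 0.08, edgeR adjusted p = 3.3e-11) and at 308 and 327 against 65.9 and 68.2 (2.24 ± 0.08, adjusted p = 3.8e-19). Ctsh went the other way, to 39.5 and 36.1 CPM from 248 and 272 (-2.78 ± 0.10, adjusted p = 3.7e-19) and to 112 and 115 from 239 and 245 (-1.10 ± 0.09, adjusted p = 2.4e-11). None of these groups overlapped. Glb1 was lower in both, at 19.9 and 19 CPM against 47.1 and 50.3 (-1.32 ± 0.09, adjusted p = 6.4e-13) and at 19.4 and 20.7 against 51.1 and 53.5 (-1.38 ± 0.08, adjusted p = 4.7e-14). Gaa fell to 96.7 and 96.5 from 316 and 355 in the Gata6-FKBP mutant (-1.79 ± 0.07, adjusted p = 1.9e-18), and Psap to 477 and 485 from 1077 and 1084 in the Sox17-FKBP mutant (-1.17 ± 0.07, adjusted p = 2.7e-14). All 4 comparisons were free of overlap.

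Gm2a and Atp6v0d1 were higher in both mutants. Gm2a was at 17.9 and 16.6 CPM against 10.6 and 13 in the Gata6-FKBP mutant (0.55 ± 0.10, edgeR adjusted p = 2.9e-05) and at 29.1 and 31.7 against 8.62 and 8.39 in the Sox17-FKBP mutant (1.84 ± 0.09, adjusted p = 4e-16). Atp6v0d1 was at 353 and 309 against 202 and 213 in the former (0.67 ± 0.11, adjusted p = 6.2e-06), and its log2 difference was 0.98 ± 0.11 in the latter (adjusted p = 8.5e-09). The calls of Tfeb and Mcoln1 were not the same in both mutants; the difference between mutants was not tested. Tfeb was higher in the Gata6-FKBP mutant, at 28 and 26.1 CPM against 15.6 and 18.9 (0.65 ± 0.12, adjusted p = 3.9e-05), and not called in the Sox17-FKBP mutant, at 7.69 and 9.56 against 6.8 and 7.65 (adjusted p = 0.084). Mcoln1 was higher in the Sox17-FKBP mutant, at 72.6 and 72 CPM against 37.3 and 39 (0.92 ± 0.08, adjusted p = 1.8e-10), and lower in the Gata6-FKBP mutant, at 40.1 and 37.4 against 44.1 and 47.5 (-0.24 ± 0.09, adjusted p = 0.022), a call lost in 7 alternatives. In the wider lists the Gata6-FKBP mutant had 2 of 26 other hydrolases higher (24.6% of all genes) and 12 lower (23.7%). The Sox17-FKBP mutant had 9 higher (26%) and 8 lower (24.6%). Of 10 sorting genes 2 were higher and 7 lower in the Gata6-FKBP mutant, against 5 higher and 3 lower in the Sox17-FKBP mutant. Igf2r was lower in both. It was at 131 and 137 CPM against 375 and 379.6 in the Gata6-FKBP mutant (-1.49 ± 0.13, edgeR adjusted p = 1.4e-10). In the Sox17-FKBP mutant it was at 146 and 131 against 286 and 288 (-1.05 ± 0.13, adjusted p = 5.6e-08). The visceral endoderm list was higher in both mutants, at 1965 and 2241 summed CPM and at 3096 and 2764, with 5 of 11 genes above 1 CPM in both libraries, against 915 and 919 and 1121 and 1060 in the non-mutant lines, where 7 and 8 genes were above 1 CPM. The XEN and primitive endoderm list was lower, at 22184 and 22627 summed CPM against 40473 and 43114 in the Gata6-FKBP mutant and at 29564 and 28960 against 33620 and 32865 in the Sox17-FKBP mutant. The macrophage list went from 1.7 and 2.18 to 20.2 and 16.6 summed CPM in the Gata6-FKBP mutant, with 6 of its 12 genes, Ptprc and Itgam among them, at 0 and 1 above 1 CPM, and from 13.4 and 12.2 to 10.6 and 11.1 in the Sox17-FKBP mutant. The trophoblast list of 6 genes went from 1.17 and 1.16 to 15.3 and 14.5 and from 0.0701 and 0.0956 to 3.35 and 3.42, with 1 gene above 1 CPM in each mutant. The part of these lists in the lysosome genes' differences was not tested.

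**Figure D5:**
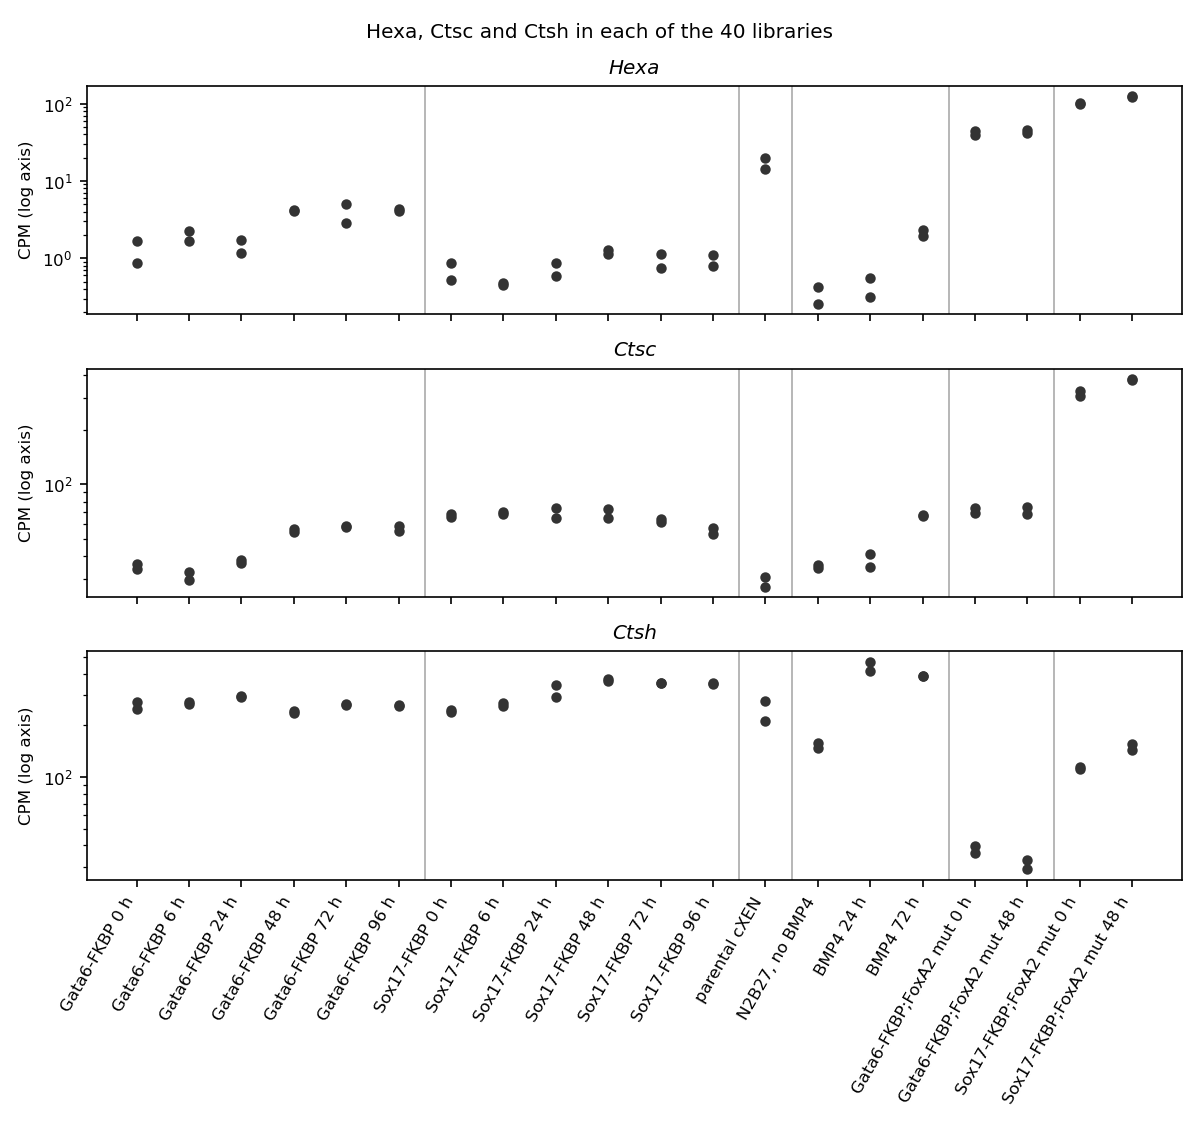
CPM (log axes) of Hexa, Ctsc and Ctsh in each of the 40 libraries (points), by group. Hexa exceeds 39 CPM only in the 8 FoxA2 mutant libraries, where Ctsh has its lowest values in the Gata6-FKBP mutant, and Ctsc is highest in the Sox17-FKBP mutant at 308 to 380.0 CPM.

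Within the mutants, dTAGV1 for 48 h changed few lysosome genes. In the Gata6-FKBP mutant edgeR called none of 33, with 5 at an unadjusted p under 0.05 and 1 called by DESeq2, against 0.164% higher and 0.0752% lower of all genes. In the Sox17-FKBP mutant 5 rose (1.52% of all genes) and none fell (1.23%): Ctsd, Ctsh, Gaa, Naglu and Neu1. Ctsh went from 112 and 115 CPM to 144 and 155 (0.40 ± 0.09, edgeR adjusted p = 0.0074), Naglu from 9.61 and 8.61 to 13.7 and 11.6 (0.47 ± 0.11, adjusted p = 0.0087) and Neu1 from 181 and 184 to 229 and 229.8 (0.33 ± 0.09, adjusted p = 0.027). The groups did not overlap, but leaving out any library of this comparison left between 0 and 2 genes called, and all 3 calls were lost without replicate 2 of the mutant's 0 h group (adjusted p = 0.064, 0.25 and 0.17). Tfeb was at 10 and 9.34 CPM against 7.69 and 9.56 and was not called, nor was Mcoln1 at 80.1 and 80.1 against 72.6 and 72. In the Gata6-FKBP mutant Tfeb was at 30.1 and 29.5 against 28 and 26.1 and Mcoln1 at 41.6 and 44 against 40.1 and 37.4, with no call.

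The difference of the 48 h responses, mutant minus non-mutant, was tested in each line. With Gata6 degradation it was negative for 13 genes (10.9% of all tested genes) and positive for none (16.1%). Lamp2, at 37.1 and 44.7 CPM in vehicle and 43.7 and 35.9 after dTAGV1, lacked the rise of the non-mutant line (difference -1.25 ± 0.18, edgeR adjusted p = 5.5e-06). The difference was -1.19 ± 0.31 for Idua (adjusted p = 0.0055), which stayed at 2.42 and 2.87 against 2.7 and 2.62 CPM. For Hexa it was -1.67 ± 0.33 (adjusted p = 0.00041), from a far higher starting level. With Sox17 degradation the difference was negative for 11 genes (7.51%) and positive for 2 (6.9%). Tfeb differed by -0.99 ± 0.17 (adjusted p = 0.00016), Gm2a, at 29.1 and 31.7 against 29.4 and 30.8 CPM, by -0.59 ± 0.13 (adjusted p = 0.0014) and Naglu by -0.58 ± 0.15 (adjusted p = 0.0079). Lgmn, which fell in the non-mutant line, stood at 891 and 962 CPM and then 863 and 901 in the mutant (difference 0.55 ± 0.08, adjusted p = 3.3e-05), and for Ctsl the difference was 0.25 ± 0.08 (adjusted p = 0.021). Mcoln1 differed by -0.39 ± 0.12 (adjusted p = 0.021). The calls of Ctsl and Mcoln1 were lost without most of the libraries concerned, with adjusted p of at most 0.12, and that of Naglu without either of 2 mutant libraries (adjusted p = 0.055 and 0.069). Without replicate 2 of the 48 h group, replicate 2 of the mutant's 0 h group or either of the mutant's 48 h libraries, 8 genes were called in place of 13.

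The tagged lines also differed from the parental cells and from each other before treatment. Against parental cells the Gata6-FKBP line had 11 of 33 genes higher (23.4% of all genes) and 11 lower (24.4%), and the Sox17-FKBP line 7 higher (25.8%) and 14 lower (31.3%). Hexa, at 14.4 and 19.8 CPM in parental cells, was 13.5-fold lower in the Gata6-FKBP line (-3.75 ± 0.24, edgeR adjusted p = 5.1e-13) and 23.5-fold lower in the Sox17-FKBP line (-4.56 ± 0.23, adjusted p = 1.1e-15). Gm2a and Naglu, at 28 and 25.4 and at 25 and 25.7 CPM in parental cells, were lower in both lines as well (-1.65 ± 0.09 and -1.30 ± 0.10 in the Sox17-FKBP line, adjusted p = 1e-14 and 2.3e-11). Manba was higher in the Sox17-FKBP line than in any group outside it, at 107 and 105 CPM against 28.6 and 27.8 in parental cells (1.91 ± 0.08, adjusted p = 2.2e-17) and 22.6 and 21.8 in the Gata6-FKBP line. Ctsc (1.22 ± 0.08, adjusted p = 6.5e-13) and Lipa (0.63 ± 0.06, adjusted p = 1.3e-09) were higher in that line than in parental cells, while in the Gata6-FKBP line Tfeb (0.85 ± 0.13, adjusted p = 2.5e-06), Neu1 (0.71 ± 0.09, adjusted p = 1.2e-07) and Ctsl (0.44 ± 0.05, adjusted p = 8e-08) were. Tfeb stood at 8.91 and 10.2 CPM in parental cells. Mcoln1, at 42.6 and 48.3 CPM in parental cells, did not pass the test in the Gata6-FKBP line (0.01 ± 0.08, adjusted p = 0.93) and was lower in the Sox17-FKBP line (-0.25 ± 0.08, adjusted p = 0.012), a call lost in 5 alternatives. Fibroblast genes, a list of 8, summed to 1279 and 1722 CPM in parental cells and to between 0.0642 and 0.386 in vehicle libraries of both tagged lines. Their part in these differences was not tested.

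Between the untreated lines 16 genes were higher in the Gata6-FKBP line (27.4% of all genes) and 11 in the Sox17-FKBP line (20.6%). Tfeb (1.24 ± 0.13, edgeR adjusted p = 2.8e-09), Ctsa (1.11 ± 0.08, adjusted p = 1.4e-12) and Ctsd (0.78 ± 0.09, adjusted p = 2.3e-08) were higher in the former. Manba (-2.26 ± 0.08, adjusted p = 1.7e-18), Ctsc (-0.94 ± 0.08, adjusted p = 2e-10) and Ids, at 12.3 and 9.83 CPM against 22 and 19.4 (-0.90 ± 0.14, adjusted p = 7.6e-06), were lower. None of these overlapped between the lines. The rises of Tfeb with Sox17 degradation and of Ctsc with Gata6 degradation started from the lower level of both lines.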

How the data were processed

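RNA of mouse cXEN cells was sequenced in 40 libraries, 2 in each of 20 groups; 14 chromatin samples were not analysed here. The deposited values are raw counts of reads per Ensembl gene made by the authors with HISAT2, HTSeq and mm10, per the submitters' processing notes; versions, annotation and strand setting are not given in the sources used here. Totals of reads outside genes, 3.99 to 10.45 per 100 gene reads, and of ambiguous reads were kept out of library sizes and tests. Symbols matched 47224 of 47729 gene IDs. The 33 genes, the wider pathway lists and the naming rule were chosen with earlier results of these data known. That rule names, in each comparison, up to 3 called genes that rose and up to 3 that fell, by size of change, Tfeb and Mcoln1 in every course, and up to 2 called genes of each wider list; other genes named were chosen after their values were seen. A gene of the wider lists that the rule names is not reported here.

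All 40 libraries entered 1 quasi-likelihood fit (edgeR 4.0.16, R 4.3.3) with 1 mean per group and TMM scaling. The filterByExpr filter on counts kept 14625 genes, and the fit had 20 residual degrees of freedom and a biological coefficient of variation of 8.22%. The standard error of a log2 change was derived from its F statistic, as change over root F. The procedure was tested on simulated data. Replicate numbers were treated as names, with a block for them as an alternative. The others were DESeq2 1.42.0, a fit restricted to the libraries being compared, median-of-ratios scaling, testing without the filter, leaving out each library (a lone sample is then assumed to vary like the other groups) and, chosen after seeing the data, reads outside genes as a covariate. Promoters are RefSeq sequences on GRCm38.p6. Gene reads per library were 16.2 to 42.5 M, which leaves genes with few reads, such as Hexa, with wide standard errors.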

Additional observations from a re-analysis of the deposited data

Results flagged for a closer look

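Differences between responses that passed edgeR's test of the difference itself are listed here. The 48 h change with Sox17 degradation differed from that with Gata6 degradation in 10 of the 33 genes, and the 96 h change in 17. At 48 h 7 differences were positive and 3 negative, against 11% and 6.16% of all tested genes. At 96 h 8 were positive and 9 negative, against 13.7% and 6.48%. On the log2 scale, Sox17 minus Gata6 degradation, the largest differences at 48 h were 1.42 for Tfeb, 0.73 for Ctsh and 0.50 for Ctsd, and -0.62 for Ctsc, -0.59 for Lgmn and -0.52 for Lamp2. At 96 h they were 0.66 for Tfeb, 0.59 for Gm2a and 0.53 for Ctsh, and -1.34 for Hexa, -0.98 for Ctsc and -0.86 for Lgmn. The calls of Lamp2 at 48 h and of Tfeb and Hexa at 96 h were lost in some alternatives, as given above.

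The 48 h response in the FoxA2 mutant differed from that in the non-mutant line in 13 genes with Gata6 degradation and in 13 with Sox17 degradation. With Gata6 degradation all 13 differences were negative, against 10.9% of all tested genes, while 16.1% were positive. With Sox17 degradation 2 were positive and 11 negative, against 6.9% and 7.51%. Mutant minus non-mutant, the differences with Gata6 degradation were -1.67 for Hexa, -1.25 for Lamp2 and -1.19 for Idua. With Sox17 degradation they were 0.55 for Lgmn, 0.25 for Ctsl, -0.99 for Tfeb, -0.59 for Gm2a and -0.58 for Naglu. Here the calls of Ctsl and Naglu were lost in some alternatives, as given above.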

How the results depend on the processing

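Counts of lysosome genes called are given here where an alternative moved them by more than 1.5 times. Shares of all tested genes under the alternatives are not given. In a fit of only the libraries compared the count became 1 at 24 h of BMP4 (22 in the report), 1 at 24 h of Sox17 degradation (19), 2 at 6 h of Gata6 degradation (4), 2 at 6 h of Sox17 degradation (0), 10 for Sox17 degradation in the FoxA2 mutant (5) and 25 for its difference from the non-mutant line (13). DESeq2 gave 8 at 6 h of Gata6 degradation, 1 at 6 h of Sox17 degradation and 1 for Gata6 degradation in the FoxA2 mutant (0). Without a filter 11 were called at 24 h of Sox17 degradation. With reads outside genes as a covariate, counts were 2 and 4 at 6 and 24 h of Gata6 degradation (4 and 9), 10 at 24 h of Sox17 degradation, 12 and 6 at 72 h of BMP4 against N2B27 and against 24 h (25 and 27), 2 and 8 for Gata6 and Sox17 degradation in the mutants (0 and 5), and 23 and 21 for their differences from the non-mutant lines (13 and 13). The cause was not tested.

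Leaving out 1 library gave 0 to 10 and 0 to 11 at 6 and 24 h of Gata6 degradation, 17 to 19, 18 to 18 and 16 to 18 at 48, 72 and 96 h, 0 to 0, 7 to 20, 21 to 23, 19 to 22 and 19 to 20 over the course of Sox17 degradation, and 7 to 9 and 11 to 14 for the difference between both at 48 and 96 h. It gave 24 to 25 for N2B27, 14 to 20, 21 to 23 and 26 to 28 for BMP4 at 24 h, at 72 h and between them, 23 to 24 and 25 to 26 for the FoxA2 mutants, 0 to 0 and 0 to 2 for degradation in them, 12 to 14 and 8 to 11 for the differences, and 19 to 24, 17 to 21 and 24 to 28 for the lines against parental cells and each other. Same-numbered libraries did not pair: the correlation of their deviations, over 10330 genes above 2 CPM, was over 0.1 in 6 and under -0.1 in 7 of 21 comparisons, from -0.54 to 0.46. With the replicate block 18 were called at 48 h of Gata6 degradation and 25 at 48 h of Sox17 degradation; it moved no count by over 1.5 times and ended 3 calls of named genes (Ppt1, Gaa and Hexa).

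Directions turned for genes near no change or under the covariate. Under the covariate the log2 change was 0.12 for Atp6v0d1 and 0.37 for Mcoln1 at 72 h of BMP4 against N2B27, 0.14 for Mcoln1 and 0.37 for Tfeb between 24 and 72 h, and -0.01 for Tfeb at 24 h of Gata6 degradation, where leaving out 1 library gave -0.05 to 0.22, with -0.05 and -0.02 without replicate 1 of the 0 h or of the 24 h group. For Mcoln1 in the Gata6-FKBP line against parental cells it was -0.02 by DESeq2, -0.02 with median-of-ratios scaling, -0.05 without replicate 2 of the 0 h group and from -0.08 to 0.10 without either parental replicate. For Mcoln1 at 6 h of Sox17 degradation it was 0.01 and 0.00 without replicate 2 of the 0 h and replicate 1 of the 6 h group.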
